A study of Homo sapiens with 6 samples.

Results

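Replication-dependent histone genes encode the H1, H2A, H2B, H3 and H4 proteins that package newly copied DNA. In build GRCh38 with GENCODE release 29, 71 protein-coding genes whose symbols begin with HIST1H, HIST2H, HIST3H or HIST4H met this naming rule, of 19864 protein-coding genes on chromosomes 1 to 22 and X. HIST1 on chromosome 6 held 55 of them, HIST2 on chromosome 1 held 12, HIST3 on chromosome 1 held 3 and HIST4 on chromosome 12 held 1. By protein they comprised 6 H1, 17 H2A, 18 H2B, 15 H3 and 15 H4 genes. The rule used names and no measured value.

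Nascent transcription had been profiled in K562, an established human leukaemia cell line, by run-on sequencing, in which engaged polymerases add a biotin-labelled nucleotide to the RNA they are making. The 6 untreated libraries formed 3 groups of 2 replicates, kept apart by 3 or more passages. PRO-seq 1M was made by the established procedure from 1M permeabilized cells, qPRO-seq 1M by a shortened procedure with the same input, and qPRO-seq 250k by the shortened procedure from 250k cells. Per the labels, the established procedure has 3 affinity purifications and the shortened one has 1, and the 1M libraries had 11 PCR cycles and the 250k libraries 14. Each group had 1 list of peaks called by dREG, a classifier that recognises active promoters and enhancers from run-on reads on both strands. The lists held 24707, 38177 and 15562 peaks on chromosomes 1 to 22 and X, in that order, which is the order of every triplet of values below. The labels call K562 lymphoblastoid. Of 9 erythroid markers 8, 9 and 7 had a peak at a start, and of 4 monocyte and granulocyte markers none did. Over all protein-coding genes 52.9%, 54.5% and 44.0% had one. The lists carry no read counts, so depth is unknown, and with 1 list per group no difference between groups has a replicate spread or a test beside it.

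These genes are transcribed mainly in S phase, lack introns as a rule, and give messages that end in a stem-loop instead of a poly(A) tail. NPAT, a substrate of cyclin E and CDK2, gathers at the clusters in histone locus bodies and is required for their transcription. H2A and H2B genes often stand head to head, with a shared stretch of promoter between them that carries CCAAT boxes and the octamer bound by OCT1 (POU2F1).

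The stretches between the starts of 4 head-to-head pairs, on the plus strand of RefSeq build GRCh38.p14, show what lies between paired starts at the highest-ranked, the lowest-ranked and the uncalled pair. HIST1H2AA/HIST1H2BA (chr6:25726563-25726776) and HIST1H2AD/HIST1H2BF (chr6:26199294-26199515) had the highest mean percentiles (defined below) of the pairs at most 300 bp apart, and HIST3H2A/HIST3H2BB (chr1:228457874-228458102) the lowest. HIST1H2AJ/HIST1H2BM (chr6:27814778-27815021), added after its values were seen, had no peak in any list. Capitals mark the TATA box letters TATAAA, the CCAAT box and, as the octamer, ATTTGCAT, each on either strand.
HIST1H2AA/HIST1H2BA: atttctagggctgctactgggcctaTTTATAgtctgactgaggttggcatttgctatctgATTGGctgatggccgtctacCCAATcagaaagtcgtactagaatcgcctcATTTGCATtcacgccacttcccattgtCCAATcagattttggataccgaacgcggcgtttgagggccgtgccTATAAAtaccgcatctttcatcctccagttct
HIST1H2AD/HIST1H2BF: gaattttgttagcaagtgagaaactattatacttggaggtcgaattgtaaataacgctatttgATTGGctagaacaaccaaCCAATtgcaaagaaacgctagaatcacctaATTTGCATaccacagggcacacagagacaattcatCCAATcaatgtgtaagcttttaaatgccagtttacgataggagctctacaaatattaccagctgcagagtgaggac
HIST3H2A/HIST3H2BB: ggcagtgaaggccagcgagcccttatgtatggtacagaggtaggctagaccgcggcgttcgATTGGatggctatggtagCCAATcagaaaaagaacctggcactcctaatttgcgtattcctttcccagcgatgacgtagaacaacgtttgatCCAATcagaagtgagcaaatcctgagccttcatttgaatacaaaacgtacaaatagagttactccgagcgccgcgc
HIST1H2AJ/HIST1H2BM: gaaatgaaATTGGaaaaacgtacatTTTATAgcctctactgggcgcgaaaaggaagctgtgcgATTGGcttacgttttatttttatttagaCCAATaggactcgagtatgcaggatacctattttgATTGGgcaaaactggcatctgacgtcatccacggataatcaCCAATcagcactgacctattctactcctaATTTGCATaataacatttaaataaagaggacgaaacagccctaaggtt
CCAAT occurred 3 times in each of the first 3 stretches and 5 times in the last. The octamer occurred once in each except HIST3H2A/HIST3H2BB, where it had no match. The stretch with no peak held the same 3 kinds of match as the stretch of HIST1H2AA/HIST1H2BA.

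For the linker histone H1, the 250 bases before the start of HIST1H1C (chr6:26056471-26056720, minus strand) are shown, as the promoter of the H1 gene with the highest mean percentile. Capitals mark CCAAT and AAACACA, the H1 box, on either strand.
HIST1H1C: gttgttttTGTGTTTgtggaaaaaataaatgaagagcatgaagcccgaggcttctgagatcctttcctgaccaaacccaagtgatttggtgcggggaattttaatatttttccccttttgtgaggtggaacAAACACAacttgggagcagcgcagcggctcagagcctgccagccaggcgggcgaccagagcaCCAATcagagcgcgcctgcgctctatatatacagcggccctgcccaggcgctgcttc
AAACACA was found 2 times and CCAAT once.

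Start peaks are those whose interval comes to within 500 bp of a transcript start annotated for the gene. Of the 71 histone genes, 44 had one in PRO-seq 1M (62.0%, Wilson 95% interval 50.3% to 72.4%), 50 in qPRO-seq 1M (70.4%, 59.0% to 79.8%) and 43 in qPRO-seq 250k (60.6%, 48.9% to 71.1%). Over all protein-coding genes the shares were 52.9%, 54.5% and 44.0%. The first background share lay inside its interval and the other two below theirs. These intervals cover counting error only, and genes that share a peak are not independent.

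The score of a gene's top start peak was turned into a percentile among all peaks of its list, since scores carry no common unit. Histone genes with a start peak had median percentiles of 94.5, 97.0 and 98.1, against 76.4, 80.7 and 68.2 over all protein-coding genes with one. A start peak among the top 10% of scores was found for 28, 30 and 30 of the 71 genes, or 39.4%, 42.3% and 42.3%, where 12.2%, 15.5% and 7.60% of all protein-coding genes had one. The top start peaks were also wider, with medians of 820, 705 and 780 bp against 550, 540 and 470 bp. The high ranks lay mostly with the 22 genes of head-to-head pairs, which share 10 peaks in each list. Of these 22 genes 20 had a start peak in each list, all of them in the top 10%, with median percentiles of 97.5, 98.4 and 99.4. The 49 genes in no pair had a start peak in 24, 30 and 23 cases (49.0%, 61.2% and 46.9%), with medians of 75.8, 82.0 and 79.5, near those of all protein-coding genes and below them in PRO-seq 1M. In the top 10% were 16.3%, 20.4% and 20.4% of the 49. The 49 include HIST1H2AK, HIST1H2BN and HIST1H3J, all in the top 10%, which are paired when any transcript start counts.

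**Figure D1:**
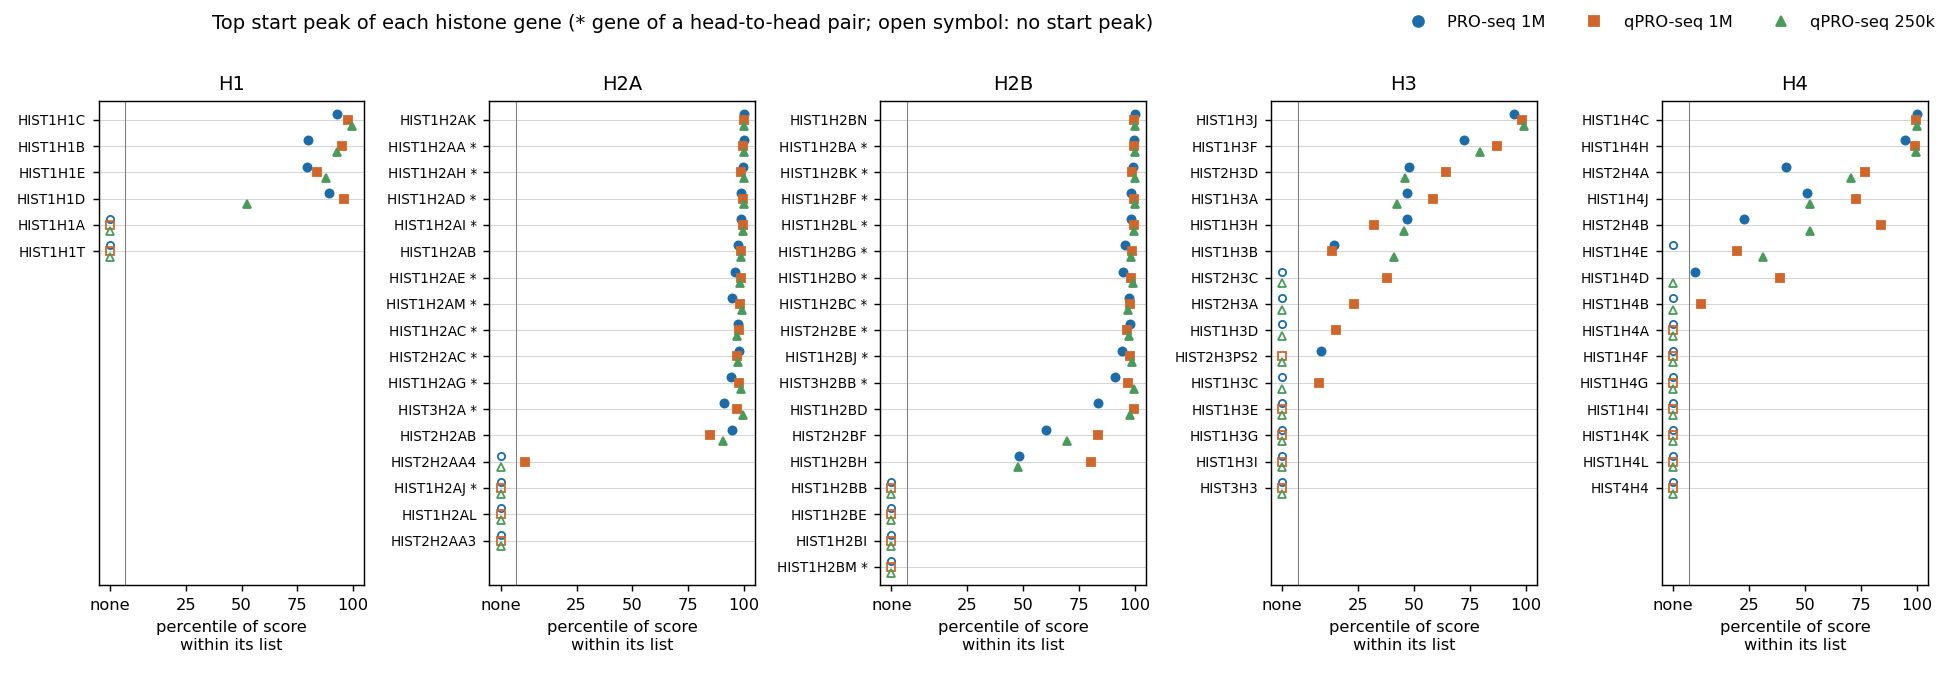
Percentile of the top start peak (horizontal axis, 0 to 100 within its own list) of each of the 71 histone genes, by histone type, with 1 symbol per list and open symbols where a gene had no start peak. Most called H2A and H2B genes crowd near 100, with HIST2H2AA4 at 2.12, whereas called H3 and H4 genes spread from 0.848 upwards. Every type has genes with no start peak.

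The core histone types differed in rank and also in presence. H2A genes had a start peak in 13, 14 and 13 of 17 cases, with median percentiles of 97.2, 98.4 and 99.2. H2B genes had one in 14 of 18 in each list, with medians of 96.5, 98.4 and 98.9. H3 genes had one in 7, 10 and 6 of 15, with medians of 47.0, 34.9 and 45.7, all under those of protein-coding genes as a whole. H4 genes had one in 6, 8 and 6 of 15, with medians of 46.3, 75.0 and 61.6, also lower than over all genes. These H4 medians include HIST2H4A, HIST2H4B and HIST1H4J, whose calls are uncertain because their promoters are nearly identical to those of other histone genes. Of the remaining called H4 genes, HIST1H4C and HIST1H4H stood at 94.7 or more in every list. HIST1H4D, HIST1H4E and HIST1H4B stood at 38.8 or less where called, so the H4 medians depend on the uncertain genes. A peak in the top 10% was found for 13, 12 and 13 H2A genes and 11, 12 and 12 H2B genes, but for 1 H3 gene and 2 H4 genes in each list. By presence alone, the H2A shares (76.5%, 82.4% and 76.5%) and the H2B share (77.8% in each list) lay above those of all genes. The H3 shares (46.7%, 66.7% and 40.0%) lay above them in qPRO-seq 1M only, and the H4 shares (40.0%, 53.3% and 40.0%) below them in every list. The 13 H2A and H2B genes in no pair (53.8%, 61.5% and 53.8%) lay above them. The shares of all genes lay inside the Wilson intervals of the H3, H4 and unpaired sets. All 22 paired genes are H2A or H2B, so type and pairing overlap. The type intervals rest on 6 to 18 genes and are wide.

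**Figure D2:**
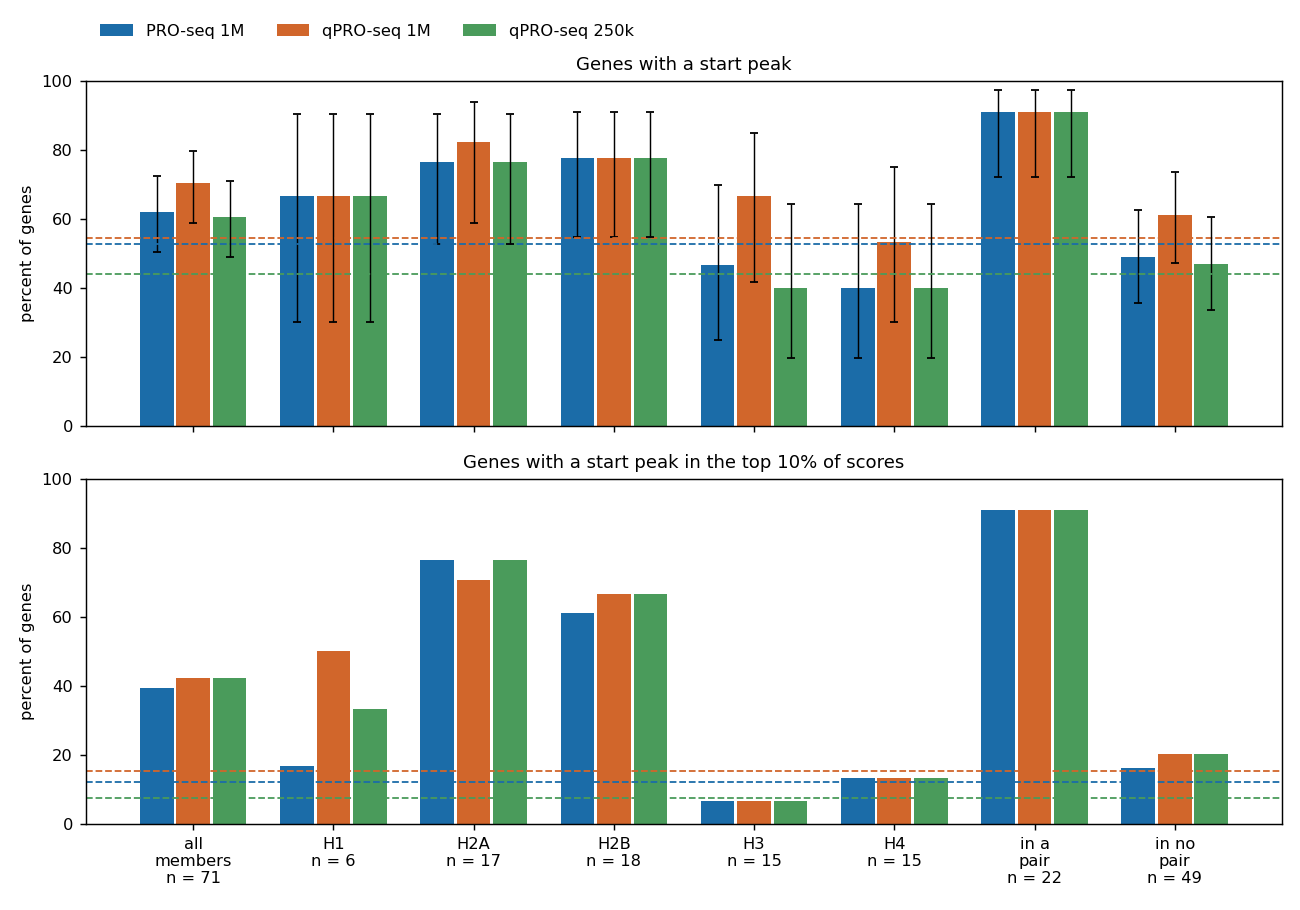
Percent of histone genes (vertical axes) with a start peak (upper panel, bars with Wilson 95% intervals for counting error) and with a start peak in the top 10% of scores (lower panel), by histone type and pairing, for the 3 lists. Dashed lines give all protein-coding genes in the same list: in the lower panel the H2A and H2B bars stand at 61.1% to 76.5% and the H3 bars at 6.67%.

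The 11 head-to-head pairs were all of 1 H2A and 1 H2B gene, with 5′ ends 219 to 331 bp apart (median 283 bp). A peak lay at a start in 10 of the 11 pairs in each list (90.9%, 62.3% to 98.4%), close to the 86.6%, 88.2% and 81.2% of 704 other head-to-head protein-coding pairs, whose ends lay a median of 110 bp apart. What differed was the rank. The lowest percentile among the 10 pairs was 91.0, 96.7 and 96.7, and the medians were 97.5, 98.4 and 99.4, against 80.5, 84.6 and 71.6 for other pairs with a peak. In every list 10 of the 11 pairs had a peak in the top 10% of scores, which held for 23.4%, 31.5% and 16.1% of all 704 other pairs. The top start peak was the same for both genes in 10 of the 11 pairs, against 67.5%, 67.5% and 63.6% of the 704, with pairs that have no peak counted in both.

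HIST1H2AA/HIST1H2BA, which encode testis forms of H2A and H2B and form a block of their own at one end of HIST1, reached percentiles of 99.8, 99.4 and 99.9. HIST1H2BK/HIST1H2AH reached 99.4 and 98.6 in the 1M lists and rank 8 of 15562 in qPRO-seq 250k. HIST1H2AD/HIST1H2BF reached 98.4, 99.5 and 99.9. These 3 pairs had the highest mean percentiles (99.7, 99.3 and 99.3), and HIST3H2A/HIST3H2BB had the lowest, with 91.0, 97.0 and 99.6. HIST2H2BE/HIST2H2AC, the only HIST2 pair, stood at 97.8, 96.7 and 97.5. Across protocols and inputs, no pair with a peak fell under the 91.0 of HIST3H2A/HIST3H2BB in PRO-seq 1M.

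At all 10 pairs the top peak covered the midpoint between both starts in every list, and it spanned both starts at 9, 8 and 10 pairs. Its centre lay at most 134, 164 and 154 bp from that midpoint. HIST1H2BJ/HIST1H2AG was the most displaced, with centres 134, 164 and 154 bp towards the H2A gene in turn. HIST1H2AJ/HIST1H2BM was the exception, with no peak in any list.

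**Figure D3:**
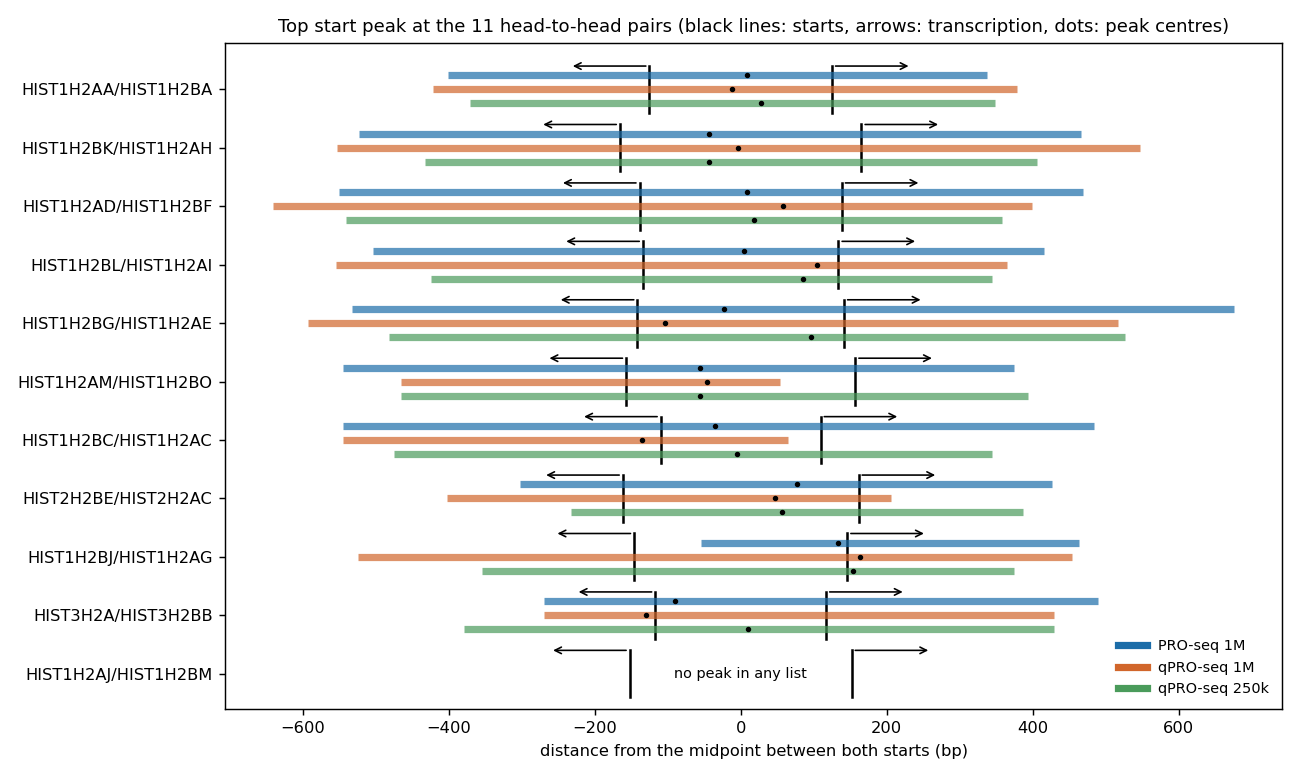
Extent of the top start peak (bars, one per list) and its centre (dots) at the 11 head-to-head H2A and H2B pairs, against the distance in bp from the midpoint of both starts (vertical lines, with arrows for the direction of transcription). Centres stay within 164 bp of the midpoint, and HIST1H2AJ/HIST1H2BM has no bar.

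Of 13 H2A and H2B genes in no pair, 7, 8 and 7 had a start peak. HIST1H2AK and HIST1H2BN, whose gene records are not head to head by their 5′ ends, shared a peak of rank 36 of 24707, 98 of 38177 and 3 of 15562. These genes do form a head-to-head pair when any transcript start counts. The RefSeq start of HIST1H2BN lies 809 bp downstream of its GENCODE 5′ end. Their peak ranked above that of every pair defined by gene 5′ ends in the 3 lists. HIST1H2AB stood at 97.2, 98.7 and 98.6, HIST2H2AB at 94.4, 84.7 and 90.7, and HIST1H2BD at 83.6, 99.4 and 97.9. HIST2H2BF (60.1, 83.5 and 69.7) and HIST1H2BH (47.9, 80.4 and 47.8) were lower, with HIST1H2BH the lowest H2B gene called in all lists. Among HIST1 H2A genes called in all lists the lowest mean belonged to HIST1H2AG of a pair, at 94.0, 97.9 and 98.6, so the called H2A genes of HIST1 ranged less than the called H2B genes.

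HIST2H2AA4 had a peak in qPRO-seq 1M alone, at percentile 2.12. No list had a start peak at HIST2H2AA3, HIST1H2AL, HIST1H2BB, HIST1H2BE or HIST1H2BI.

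Among H4 genes, HIST1H4C carried the top-scored peak of the whole PRO-seq 1M list (rank 1 of 24707, score 1.47), rank 60 of 38177 in qPRO-seq 1M and rank 2 of 15562 in qPRO-seq 250k. Its peaks were 1000, 1270 and 1110 bp wide, with centres 84, 94 and 104 bp inside the gene. HIST1H4H followed with 94.7, 99.1 and 99.6. The remaining H4 genes called in all lists were far lower: HIST2H4A had 41.5, 77.1 and 70.7, HIST2H4B 22.8, 84.1 and 52.2, and HIST1H4J 51.1, 72.9 and 52.4. HIST1H4D was called in both 1M lists (0.848 and 38.8), HIST1H4E in both qPRO-seq lists (19.7 and 31.4), and HIST1H4B in qPRO-seq 1M alone (3.45). HIST1H4A, HIST1H4F, HIST1H4G, HIST1H4I, HIST1H4K, HIST1H4L and HIST4H4 had no start peak in any list. Those 7 are 46.7% of the 15 H4 genes, near the 43.5% of all protein-coding genes with a start peak in no list.

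H3 genes showed no such extreme. HIST1H3J was the only H3 gene in the top 10%, at 94.7, 98.2 and 99.2, and its top peak was the one of HIST1H2AM/HIST1H2BO next to it. HIST1H3F had 72.5, 87.3 and 79.5, HIST2H3D 47.5, 64.3 and 45.8, and HIST1H3B, the lowest H3 gene called in all lists, 13.9, 13.3 and 41.0. HIST1H3A and HIST1H3H were also called in all 3. HIST2H3C (37.8), HIST2H3A (23.0), HIST1H3D (14.9) and HIST1H3C (7.57) were called in qPRO-seq 1M alone, and HIST2H3PS2 (8.23) in PRO-seq 1M alone. HIST3H3, HIST1H3E, HIST1H3G and HIST1H3I had no start peak in any list.

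Of the linker histones, which bind DNA between nucleosomes, 4 of 6 had a start peak in every list. HIST1H1C ranked highest with 92.8, 97.5 and 99.5, and HIST1H1B, next by mean percentile, had 79.8, 94.8 and 92.6. HIST1H1E had 79.1, 84.0 and 87.8. HIST1H1D had 89.1 and 95.9 in the 1M lists, above HIST1H1B in both, and 52.3 with 250k cells, the widest gap of the 4 genes. HIST1H1A and the testis H1 gene HIST1H1T had no start peak.

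Position differed between the types as well, measured from GENCODE starts. The centre of the top start peak lay upstream, at a median of -102.5, -82 and -91 bp from the start. Over all protein-coding genes the medians were -32, -35 and -34 bp. Genes in a pair, whose shared peak lies between both starts, had medians of -131.5, -149.5 and -121 bp. Genes in no pair had -45.5, -68 and -62 bp. RefSeq starts lie further upstream at many of these genes, at -39 bp for HIST1H3A and -50 bp for HIST1H2AB. How far annotation accounts for the shift was not tested. The centre lay upstream of the GENCODE gene for all 4 H1 genes in every list and for 37, 38 and 34 histone genes in all. For H4 it lay upstream in only 2 genes per list, of 6, 8 and 6. This H4 count depends on the annotation. The RefSeq starts of HIST1H4H and HIST2H4B lie 104 and 51 bp downstream of the GENCODE 5′ ends. The centres of both genes lie upstream of those RefSeq starts in every list. At HIST1H4J, a gene of 373 bp, the centres lay 362, 382 and 362 bp past the start, near the end of the gene. Where the same gene had a top peak in 2 lists, the peaks overlapped in every case, with centres a median of 20 to 30 bp apart.

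Near-identical copies limit some of these calls, since reads from one copy can be placed at another. Promoter windows from 250 bases before to 50 after the RefSeq start were identical for HIST2H4A and HIST2H4B, and 95% or more identical for HIST2H2AA3 and HIST2H2AA4 (99.3%), HIST1H4J and HIST1H4K (98.3%), HIST2H3PS2 and HIST2H3D (97.7%), and HIST2H3C and HIST2H3A (97.4%). Calls at these 10 genes are uncertain. Neighbouring records also share peaks: the start nearest to the HIST1H2AD/HIST1H2BF peak was that of AL031777.3 in the first and the third list, and the start nearest to the HIST2H2AA4 peak was that of the pseudogene HIST2H2BC. HIST1H4J was called in all lists and HIST1H4K in none, although the 250 bases before their starts differ at only 5 positions. Both are shown, chosen after the values were seen, with the differing bases in capitals: HIST1H4J on the plus strand (chr6:27823842-27824091) and HIST1H4K on the minus strand (chr6:27831561-27831810).
HIST1H4J: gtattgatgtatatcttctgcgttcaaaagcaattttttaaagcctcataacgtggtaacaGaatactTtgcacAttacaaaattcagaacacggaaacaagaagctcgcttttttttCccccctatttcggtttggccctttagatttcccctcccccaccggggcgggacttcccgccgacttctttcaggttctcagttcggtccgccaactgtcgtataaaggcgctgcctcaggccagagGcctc
HIST1H4K: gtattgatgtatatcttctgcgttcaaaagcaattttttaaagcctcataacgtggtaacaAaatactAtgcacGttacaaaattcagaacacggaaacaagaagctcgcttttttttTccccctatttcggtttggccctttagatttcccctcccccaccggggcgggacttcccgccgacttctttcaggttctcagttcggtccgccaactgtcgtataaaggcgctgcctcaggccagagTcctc
The pair without a peak was less alike its neighbours: the window of HIST1H2AJ was 86.8% identical to that of HIST1H2AI, and HIST1H2BM was 82.2% identical to HIST1H2BL.

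By cluster, HIST1 had 34, 38 and 34 of 55 genes with a start peak, HIST2 had 8, 10 and 7 of 12, HIST3 had 2 of 3 in each list and HIST4 had none. The HIST1 shares were 61.8%, 69.1% and 61.8% and the HIST2 shares 66.7%, 83.3% and 58.3%. All protein-coding genes had 52.9%, 54.5% and 44.0%. Gaps over 200 kb split HIST1 into blocks of 2, 32, 5 and 16 genes. The block of 32 spans 267.9 kb, and 18, 22 and 18 of its genes (56.25%, 68.75% and 56.25%) had a start peak. For this block and the block of 16, the shares of all genes lay inside the Wilson intervals. The block of 16 spans 85.5 kb and had 10 in each list, and the block of 5 had 4 in each list, both of its pairs, with HIST1H4I between them uncalled. In HIST2 the 11 genes on 75.5 kb had 7, 10 and 7. In these 3 HIST1 blocks, genes without a peak lay between genes in the top 10%.

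**Figure D4:**
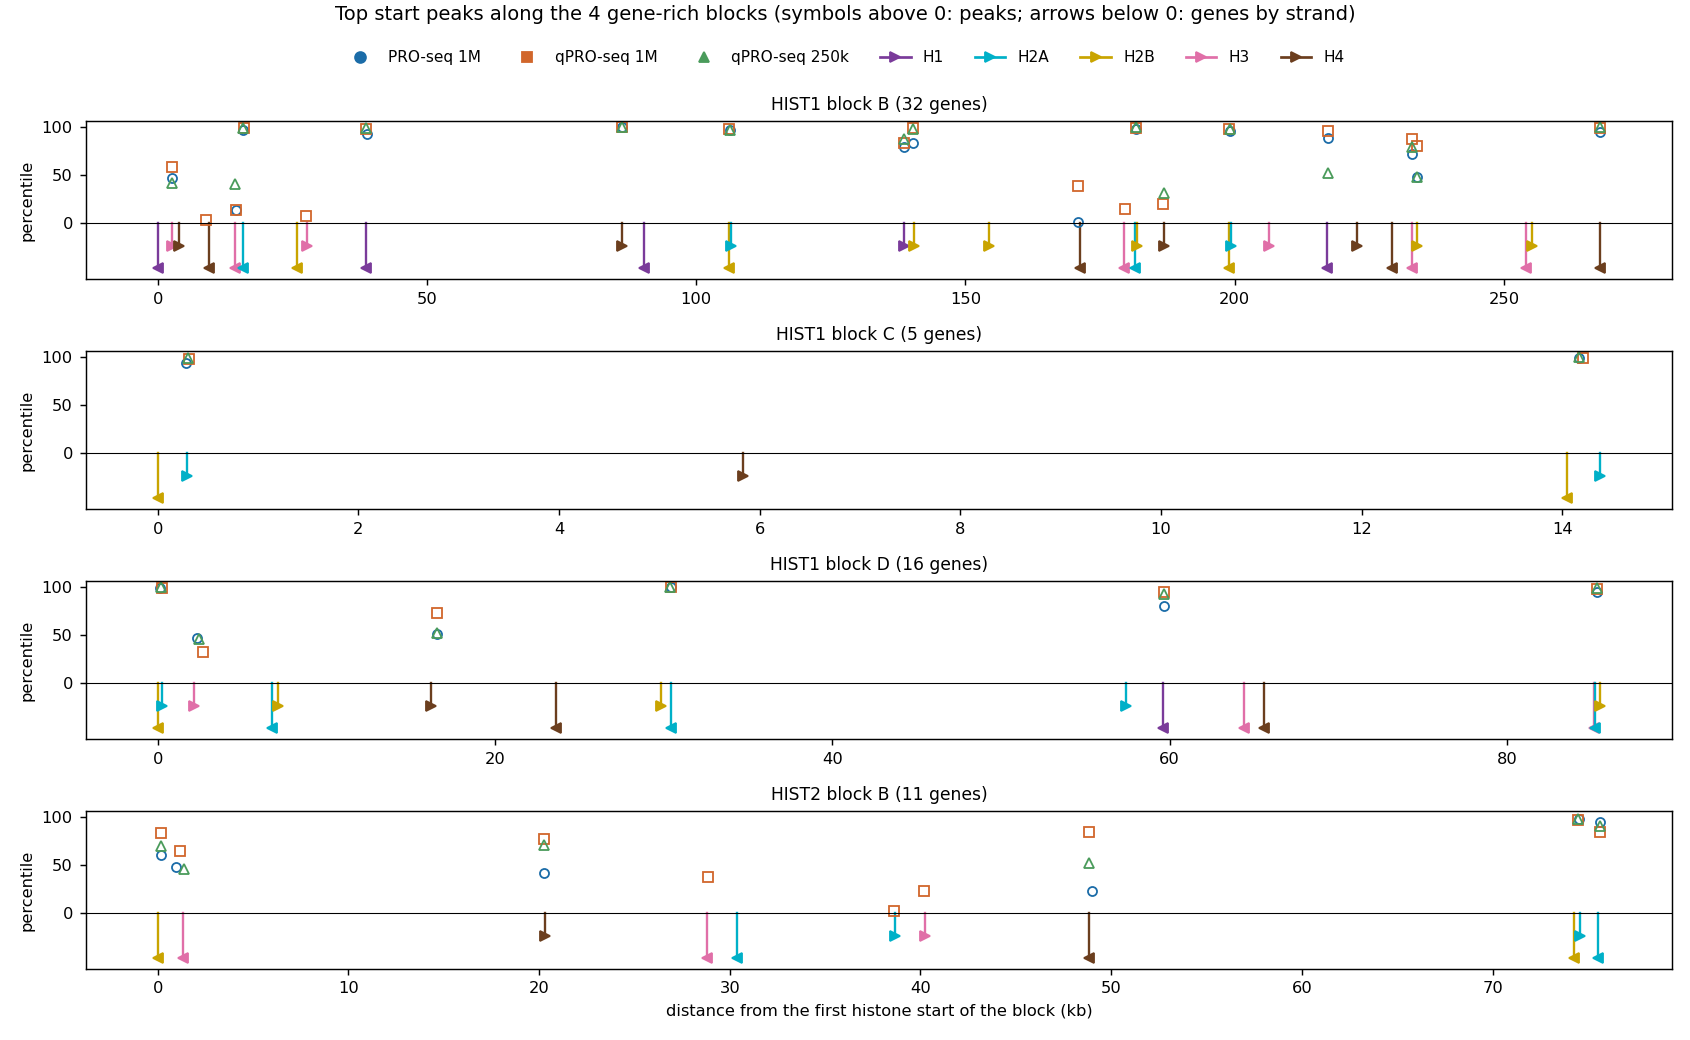
Percentile of top start peaks (symbols above 0, 1 shape per list) along 4 histone blocks, against the distance in kb from the first histone start, with genes as arrows below 0, coloured by histone type and pointing in the direction of transcription. Symbols near 100 stand over the called H2A and H2B pairs, HIST1H4C and some other genes, such as HIST1H4H and HIST1H2AB. HIST1H4I in the 5-gene block has no symbol.

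In the block of 32 genes, 17 of 24, 23 of 40 and 19 of 26 peaks lay within 500 bp of a histone start, and 5, 14 and 7 lay near no annotated start. In the block of 16, the histone starts took 11 of 14, 16 of 20 and 12 of 14 peaks. Of 7 histone pseudogenes inside the blocks, HIST2H2BD and HIST2H2BC had a start peak in every list, and HIST1H1PS1 had one in qPRO-seq 1M alone. Most peaks inside the blocks thus lay at histone genes.

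Protocol and input were compared by call. The 3 lists called the same 42 histone genes (43.1% of all protein-coding genes were called in all 3) and missed the same 20 (43.5% of all genes). The calls of the other 9 differed between lists (13.4% of all genes), and all 9 were H3 or H4 genes except HIST2H2AA4. At equal input, 7 genes had a start peak with the shortened procedure and not with the established one (3.49% of all genes), and 1 the reverse (1.89%). With less input, 7 genes called in qPRO-seq 1M were not called in qPRO-seq 250k (10.8%) and 0 the reverse (0.327%). HIST2H3C, HIST2H3A and HIST2H2AA4 are among the 7 in both comparisons, and HIST2H3PS2 is the 1 reverse case at equal input. Calls at these genes are uncertain because of near-identical copies. The 9 genes all had percentiles under 40 where they were called. The qPRO-seq 1M list is the longest, and its length, depth and procedure cannot be told apart. With each list reduced to its 15562 top-scored peaks the shares were 56.3%, 54.9% and 60.6%, so the order of the lists was not kept.

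Nearness decided few calls. Just inside 500 bp was the HIST1H4B peak of qPRO-seq 1M, 452 bp from the start and wholly past the 3′ end of the gene. Just outside were HIST1H4B in PRO-seq 1M (592 bp) and HIST2H2AA3 (675, 635 and 675 bp). HIST1H4A (709, 739 and 739 bp) also lay outside, as did HIST2H2AA4 in PRO-seq 1M (681 bp) and qPRO-seq 250k (751 bp). With a window of 1000 bp these 4 genes were called in more lists, HIST2H2AA3 and HIST1H4A in all 3 instead of none. Histone genes without a start peak had their nearest peak a median of 4515, 4345 and 4890 bp away. For HIST4H4, the only one of the 71 on chromosome 12, it lay 32080, 32250 and 32260 bp away.

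Other genes of histone biology had start peaks in most cases, and the gene groups differed in rank. Of 12 replication-independent histone genes, which are expressed outside S phase too, 8 had one in every list and 4 in none. The 8 had medians of 90.8, 91.7 and 84.8, above those of all protein-coding genes. The base rate for such counts was 43.1% of protein-coding genes called by every list, while 43.5% were called by none. The H2A.Z gene H2AFZ had 94.2, 96.2 and 96.0, and the H3.3 genes H3F3A and H3F3B had 84.9, 72.1 and 52.7 and 95.9, 93.3 and 94.5. H2AFX, whose product marks DNA breaks, had 39.5, 23.5 and 71.1. Of 10 genes of histone transcription, 9 had a start peak in every list, with medians of 71.8, 83.6 and 69.0. NPAT had 62.8, 77.1 and 46.6, the H4 promoter factor HINFP 78.4, 84.5 and 94.997, and CASP8AP2, a component of histone locus bodies, 65.1, 96.2 and 93.3. E2F1 was called in the 1M lists alone, at 13.9 and 13.7. Of 14 genes of histone 3′ end processing, 13 had one in every list, with medians of 79.9, 82.3 and 63.6. SLBP, which binds the stem-loop, had 84.7, 69.6 and 12.9, a wide spread between lists.

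Promoter windows were matched for 65 of the 71 genes, and letters were searched on both strands, beside all 34961 windows of the same length. The windows of paired genes overlap, so genes are not independent. CCAAT was in 84.6% of histone windows and 34.6% of all windows: in every H1, H2A, H2B and H3 window, but in 2 of 12 H4 windows. TATAAA was in 69.2% against 11.5%. The octamer ATTTGCAT was in 38.5% against 1.77%, in 11 of 16 H2A and 14 of 18 H2B windows and in 0 of the H1, H3 and H4 windows. AAACACA was in all 6 H1 windows and in 13.8% of histone windows, against 5.65% of all. GGGCGG was in 29.2% against 45.0%, with 8 of the 12 H4 windows among them, and CGTCCG was in 0 histone windows against 9.39%. Between the 39 genes called in all lists and the 17 called in none, the shares were 66.7% and 70.6% for TATAAA, 89.7% and 82.4% for CCAAT, and 48.7% and 35.3% for the octamer. CCAAT and the octamer differed more between histone types than between called and uncalled genes. HIST1H4A, HIST1H4C, HIST1H4I, HIST1H2AH, HIST1H3I and HIST1H3J had no window.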

How the data were processed

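The deposited files were 3 dREG peak lists without headers, 1 per group of 2 replicates, which the labels tie to both replicates. Column 4 holds the score of each peak as the authors deposited it, and column 5 its deposited p-value. Both are the authors' values and were used within a list only. Per the submitters' processing notes, tools were fastp 0.20.0, Bowtie2 2.3.5.1, UMI-tools and deepTools 3.1.3, and the build was hg38 (GRCh38). The version and thresholds of dREG and the pooling of replicates are not given in the sources used here. Deposited starts count from 0 and are printed counted from 1.

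Peaks were joined to GENCODE release 29 starts with Python 3.11.15 and numpy 2.4.6, and promoter windows were aligned with Biopython 1.88. The percentile is the mid-rank of a score among peaks of its list on chromosomes 1 to 22 and X. Pairs are neighbouring histone genes, minus strand first, with 5′ ends at most 1000 bp apart. The counting was tested on simulated data. Genes named were every HIST2, HIST3 and HIST4 gene, every gene with no call or differing calls, the 2 highest and the lowest by mean percentile of each HIST1 type, the 3 highest pairs and pairs without a peak. Others were chosen after their values were seen. Members and lists were chosen with earlier results of these data known. Promoter sequence is from RefSeq, build GRCh38.p14. The check of lymphoid markers is not reported here. Of 71 genes, 6 have no window there, and the 3′ stem-loop was not analysed here. Alternatives covered windows, peak filters, list size, near-identical genes, pair distance and merging of peaks.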

Additional observations from a re-analysis of the deposited data

How the results depend on the processing

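Of 93 values recomputed under another setting, 88 lay inside the 95% interval of the value reported and 5 moved beyond it. The intervals are wide, at 62.3% to 98.4% for the pairs, so lying inside them is a weak check. A reversal could be scored only for the distances of peak centres, whose medians kept their sign. With lists of equal size, the share of histone genes with a start peak in qPRO-seq 1M was 54.9% (39 of 71). With the lower-scored peaks of every list removed at its median, it was 49.3% in PRO-seq 1M (35 of 71) and 56.3% in qPRO-seq 1M (40 of 71). The shares of all protein-coding genes were not recomputed in these reduced lists. Whether histone genes still exceed them there is unknown. With peaks within 100 bp merged, median widths were 995 bp in qPRO-seq 1M and 840 bp in qPRO-seq 250k. Pairs with a peak stayed at 10 of 11 in each list under the alternatives that kept these pairs. All 10 stood at percentile 91.0 or more, and starts lay at most 331 bp apart. Filters on score and the shorter pair distance therefore could not remove them. With pairs taken from any transcript start, 12 of 13 had a peak. That setting adds HIST1H2AK/HIST1H2BN and HIST1H3J/HIST1H2BO. Without the near-identical genes the shares were 63.9%, 70.5% and 63.9% of 61 genes. Calls of single genes moved most under filters on score: 13 of 71 genes were called in fewer lists at equal list sizes and 16 at or above the median score. A window of 1000 bp added lists for 4 genes. No paired analysis was possible because each group has 1 list for both of its replicates, and for the same reason no replicate could be left out. Depth is unknown, so a missing peak does not show that a gene was silent.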

Other observations

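The genes known for expression in testis did not go one way. HIST1H2AA/HIST1H2BA had a peak of rank 59 of 24707, 213 of 38177 and 22 of 15562, while HIST1H1T and HIST3H3 had no start peak in any list. HIST3H3 lies in the same cluster as HIST3H2A/HIST3H2BB, whose peak stood at percentiles of 91.0, 97.0 and 99.6.

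The H4 genes spanned nearly the whole ranking. HIST1H4C ranked 1, 60 and 2 in the 3 lists, and HIST1H4B, called in qPRO-seq 1M alone, ranked 36860 of 38177. That HIST1H4B peak did not cover the start and lay wholly past the 3′ end of the gene. HIST1H4D had its centre 346 and 506 bp past a start in a gene of 312 bp.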
